A study of Mus musculus with 6 samples.

Results

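RNA of 10 genes of arginine and polyamine metabolism, Arg1, Arg2, Nos2, Odc1, Oaz1, Azin1, Amd1, Srm, Sms and Sat1, was followed through osteoclast differentiation. The genes were chosen by name, each matched exactly 1 row, and together they make up 10 of the 49315 rows of the expression table. The study examined how osteoclasts, the bone-resorbing cells of the macrophage lineage, obtain their energy as they differentiate, and RNA-Seq was done on 3 osteoclast and 3 bone marrow macrophage (BMM) libraries. Osteoclasts were BMMs of WT mice kept for 4 days in 75 ng/ml RANKL, the cytokine that induces osteoclasts, with CMG14-12 supernatant, a source of M-CSF, diluted 1/50. BMMs were WT cells at day 0 with no treatment, grown in 10% CMG14-12 supernatant. Both media held 10% FBS. No culture of 4 days without RANKL was analysed here, so RANKL, the change in M-CSF supply and the time in culture cannot be told apart. The labels call the libraries biological replicates but name no animals or cultures, so the p-values reflect the spread among these 6 libraries and nothing wider.

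Arginine stands at a branch point in macrophages. Nitric oxide synthase (Nos2) turns it into nitric oxide, and the arginases, cytosolic Arg1 and mitochondrial Arg2, turn it into ornithine and urea. Ornithine decarboxylase (Odc1) makes putrescine from ornithine, and spermidine synthase (Srm) and spermine synthase (Sms) add aminopropyl groups that come from S-adenosylmethionine after its decarboxylation by Amd1. Antizyme (Oaz1) binds ornithine decarboxylase and sends it to the proteasome, antizyme inhibitor (Azin1) takes antizyme away, and Sat1 acetylates spermidine and spermine for breakdown or export.

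Values are TPM, a unit of transcript abundance scaled for gene length and to the same total in each library. The number of reads per library is therefore unknown. Most marker genes matched the labels. All 10 osteoclast markers were higher in osteoclasts, with Acp5 (TRAP) at 13050 TPM in osteoclasts and 53.8 TPM in BMMs. Of 10 macrophage markers 8 were lower, Cx3cr1 did not pass, and Cd68 was higher, at 3584 TPM in osteoclasts and 2796 TPM in BMMs. Shares over all genes tested were 45.3% higher and 23.5% lower. Markers of other cells moved with the groups as well. The 10 neutrophil markers summed to 14.96 to 27.0 TPM in osteoclasts and 3031 to 3310 TPM in BMMs, and all 9 that were tested were lower in osteoclasts. S100a9, the most abundant of them, averaged 10.9 TPM in osteoclasts and 1726 TPM in BMMs, and Elane and Ly6g were listed at 0 in all osteoclast libraries. The 8 stromal and osteoblast markers summed to 166.5 to 208.3 TPM in osteoclasts and 10.8 to 11.6 TPM in BMMs, led by Col1a1 at 85.65 TPM in osteoclasts and 3.87 TPM in BMMs. Not all 8 rose: 5 were tested, of which 4 were higher and 1 did not pass, and 3 stayed under 1 TPM in all libraries. Summed markers of erythroid, T and B, dendritic and endothelial cells did not pass 2.31 TPM in any library. The part of these cells in the results was not tested, and in bulk RNA fewer cells of a type and less RNA per cell cannot be told apart.

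The 4 enzymes that build polyamines, Odc1, Srm, Sms and Amd1, were higher in osteoclasts, Arg1 was lower, and Oaz1 did not pass the test. Genes averaging 1 TPM or more were tested with limma on log2(TPM + 1), and a call needs an adjusted p under 0.05 (Benjamini-Hochberg over 12325 genes). A log2 fold change is therefore on the scale of TPM + 1, with osteoclasts over BMMs, and understates the change of genes with few TPM. Of the 10 genes, 8 were tested, of which 6 were higher and 1 was lower in osteoclasts. Over all genes tested, 45.3% were higher and 23.5% were lower. The osteoclast and BMM libraries did not overlap for 6 of the 8, a share close to the 73.5% of all genes tested. The median log2 fold change of the 8 was 0.71, against 0.19 over all genes tested.

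The general shift of 0.19 matters for small differences. With median-ratio scaling, which moves the median of all genes to 0.00, 4 of the 8 were higher and 1 was lower. All genes then split into 4149 higher and 4131 lower, instead of 5585 higher and 2901 lower. Measured from the median of 0.19 in the values as deposited, the log2 fold change was 2.21 for Srm, 1.78 for Odc1, 1.20 for Sms, 0.93 for Amd1 and -2.13 for Arg1. It was 0.10 for Azin1, 0.06 for Sat1 and -0.09 for Oaz1, so that the regulators and the catabolic enzyme stood near the median gene.

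**Figure D1:**
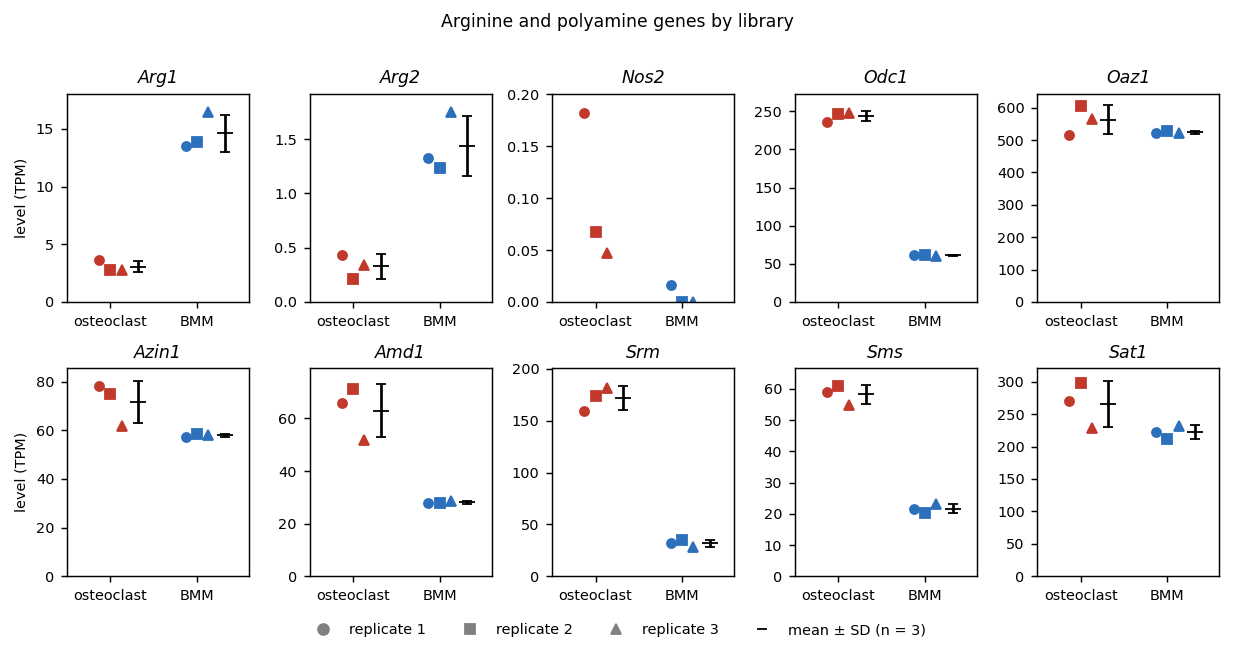
TPM of the 10 genes in each library, osteoclasts in red and BMMs in blue, with a separate axis from 0 for each gene; symbols mark replicate numbers and black bars the mean ± SD (n = 3), left out for Nos2, which was listed at 0 in 2 libraries. Odc1, Amd1, Srm and Sms stand apart with osteoclasts above BMMs, Arg1 and Arg2 with osteoclasts below BMMs, and the groups overlap for Oaz1 and Sat1.

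**Figure D2:**
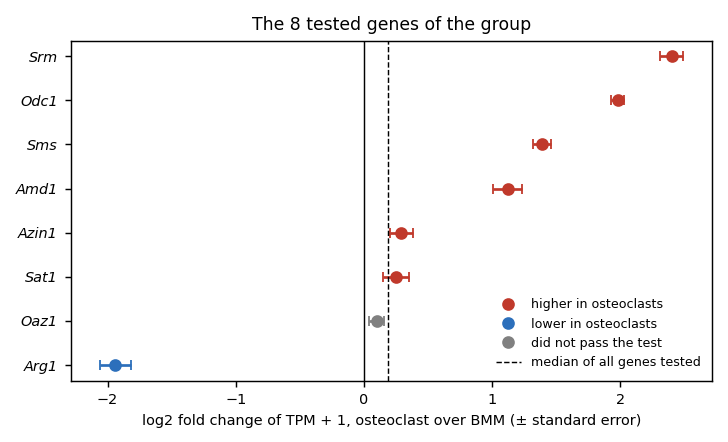
Log2 fold change of TPM + 1, osteoclasts over BMMs, with its standard error from limma for the 8 tested genes; the dashed line is the median of all genes tested, 0.19. Srm, Odc1, Sms and Amd1 lie between 1.12 and 2.40, Arg1 lies at -1.94, and Azin1, Sat1 and Oaz1 lie within 0.10 of the dashed line.

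Both arginases were lower in osteoclasts. Arg1 (ENSMUSG00000019987, chromosome 10 of GRCm38 from 24915221 to 24927484, minus strand) measured 3.64, 2.80 and 2.77 TPM in osteoclasts, against 13.55, 13.85 and 16.5 TPM in BMMs. Every osteoclast library was below every BMM library, and the osteoclast mean was 0.210 times the BMM mean. The means were 3.07 ± 0.493 TPM in osteoclasts and 14.6 ± 1.61 TPM in BMMs (SD, n = 3 each), and the log2 fold change was -1.94 ± 0.12 (SE, limma adjusted p = 2e-06). By level, Arg1 stood at percentile 16.2 of the tested genes in osteoclasts and at percentile 50.4 in BMMs, and its log2 fold change had rank 225 from the bottom among the 12325 genes. The summed neutrophil markers above were also lower in osteoclasts, and their part in this difference was not tested.

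Arg2 (ENSMUSG00000021125, chromosome 12 from 79130777 to 79156301, plus strand) was low in both states. Its level was 0.432, 0.210 and 0.339 TPM in osteoclasts, against 1.33, 1.23 and 1.75 TPM in BMMs, again without overlap. The means were 0.327 ± 0.112 TPM in osteoclasts and 1.44 ± 0.274 TPM in BMMs (SD, n = 3 each), under the minimum for the test. Without that minimum, Arg2 fell by 0.87 ± 0.11 (SE) on the log2 scale in osteoclasts (limma adjusted p = 0.0013), where 13.8% of all genes were lower. Arg2 overlaps Vti1b, a vesicle SNARE gene on the opposite strand, with which it shares 10.6% of its windows of 150 bases. Since the use of strand in counting is not given, reads there may belong to either gene. Vti1b went the other way, at 187 ± 21.7 TPM in osteoclasts and 112.9 ± 3.36 TPM in BMMs (SD, n = 3 each), and its log2 fold change was 0.72 (adjusted p = 9.3e-05 from limma).

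Nos2 (ENSMUSG00000020826, chromosome 11 from 78920787 to 78960254, plus strand), which competes for the same arginine, was barely detected in either state. It was listed at 0.182, 0.0679 and 0.0471 TPM in osteoclasts, against 0.0159, 0 and 0 TPM in BMMs. The osteoclast libraries were the higher ones, but all 6 values lay far below 1 TPM and no fold is given against a group with libraries at 0. Without the minimum, its log2 fold change of 0.13 had an adjusted p of 0.096 from limma.

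Odc1 (ENSMUSG00000011179, chromosome 12 from 17544794 to 17551505, plus strand), the entry step of polyamine synthesis, had the tightest replicates of the enzymes that rose. It measured 235.7, 246.2 and 248.2 TPM in osteoclasts, against 61.3, 61.6 and 60.4 TPM in BMMs. The libraries of each group lay within a few percent of each other, and the osteoclast mean was 3.98 times the BMM mean. The means were 243 ± 6.74 TPM in osteoclasts and 61.1 ± 0.653 TPM in BMMs (SD, n = 3 each), and the log2 fold change was 1.98 ± 0.05 (SE, limma adjusted p = 2.2e-08). Odc1 stood at percentile 95.3 of level in osteoclasts and at percentile 83.0 in BMMs. The transcripts share 1.68% of their windows of 150 bases with Gm14928, Gm17709, Gm7993 and Gm9115, none of which passed 1.41 TPM in any library.

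Srm and Sms, the aminopropyl transferases, rose together with Odc1, and Srm rose most of the 10 genes. Srm (ENSMUSG00000006442, chromosome 4 from 148591503 to 148594993, plus strand) measured 159, 174 and 182 TPM in osteoclasts, against 32.1, 35.2 and 28.0 TPM in BMMs. All osteoclast libraries were more than 4 times the highest BMM library. The mean was 172 ± 11.5 TPM in osteoclasts and 31.7 ± 3.60 TPM in BMMs (SD, n = 3 each), 5.41 times the BMM mean, and the log2 fold change was 2.40 ± 0.09 (SE, limma adjusted p = 1.8e-07). Srm had rank 247 from the top among the 12325 log2 fold changes.

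Sms (ENSMUSG00000071708, X chromosome from 157443855 to 157492287, minus strand) measured 59.1, 60.9 and 54.8 TPM in osteoclasts, against 21.5, 20.4 and 23.1 TPM in BMMs. The groups did not overlap. Its mean was 58.2 ± 3.15 TPM in osteoclasts and 21.7 ± 1.40 TPM in BMMs (SD, n = 3 each), and the log2 fold change was 1.39 ± 0.07 (SE, limma adjusted p = 8.4e-07). A processed copy, Sms-ps, shares 15.5% of the windows of Sms and measured 1.13 TPM in osteoclasts and 0.582 TPM in BMMs on average.

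Amd1 (ENSMUSG00000075232, chromosome 10 from 40287458 to 40302186, minus strand), which supplies the aminopropyl donor for both synthases, measured 65.8, 71.3 and 51.7 TPM in osteoclasts, against 27.9, 27.8 and 28.7 TPM in BMMs. Osteoclasts were higher in every library but varied more, with a coefficient of variation of 16.0% in osteoclasts and 1.7% in BMMs. The mean was 62.9 ± 10.1 TPM in osteoclasts and 28.1 ± 0.487 TPM in BMMs (SD, n = 3 each), and the log2 fold change was 1.12 ± 0.11 (SE, limma adjusted p = 3.7e-05). The level of Amd1 is uncertain, since 57.6% of its windows also occur in Amd2, Amd-ps3 or Amd-ps4, and how reads with several matches were counted is not given. Those copies held at most 0.185 TPM in any library.

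The calls of Odc1, Srm, Sms and Amd1 as higher and of Arg1 as lower held in all 15 alternatives of scaling, filter, pseudocount, model and left-out library. The log2 fold change ranged over them between 1.77 and 2.00 for Odc1, between 2.19 and 2.48 for Srm, between 1.18 and 1.43 for Sms, between 0.91 and 1.25 for Amd1 and between -2.22 and -1.86 for Arg1.

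Sequence before the start of 3 of the 4 enzymes that rose is shown because these genes moved together, from RefSeq windows of the GRCm38.p6 build. Of the 10 genes, 5 had a window of 250 bases before and 50 after the RefSeq start: Amd1, Oaz1, Odc1, Sat1 and Sms, the last with 2 windows. Each run is written from 5′ to 3′ on the strand of the gene and stops before the annotated gene. Capitals mark the letters searched on both strands: GGGCGG (the GC box), CACGTG (the E-box that Myc with Max binds), CCAAT and TATAAA, none of which overlaps another kind in these runs.
Odc1, chr12:17544623-17544793, plus strand: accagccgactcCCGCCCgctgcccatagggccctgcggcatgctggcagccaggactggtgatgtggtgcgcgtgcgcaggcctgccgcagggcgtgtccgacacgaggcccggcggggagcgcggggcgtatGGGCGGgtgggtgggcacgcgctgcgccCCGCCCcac
Amd1, chr10:40302189-40302438, minus strand: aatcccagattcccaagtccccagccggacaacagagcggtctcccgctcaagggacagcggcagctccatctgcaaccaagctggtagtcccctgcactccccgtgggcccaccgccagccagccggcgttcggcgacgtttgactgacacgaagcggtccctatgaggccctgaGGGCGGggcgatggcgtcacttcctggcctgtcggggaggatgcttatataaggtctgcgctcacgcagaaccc
Sms, chrX:157492288-157492537, minus strand: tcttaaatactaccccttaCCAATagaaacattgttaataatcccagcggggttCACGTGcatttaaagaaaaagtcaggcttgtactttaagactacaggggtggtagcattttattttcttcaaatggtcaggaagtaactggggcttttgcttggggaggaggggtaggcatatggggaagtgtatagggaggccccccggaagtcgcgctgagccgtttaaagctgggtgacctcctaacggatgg
The Odc1 run is 77.2% G and C, the Amd1 run 64.4% and the Sms run 47.2%. The whole Odc1 window held 4 GC boxes and 0 E-boxes, and that of Amd1 held 1 GC box and 0 E-boxes. For comparison, the Sat1 window held 2 GC boxes, and that of Oaz1 held 0 GC boxes, 1 CCAAT and 1 TATAAA. Sequence outside the windows was not searched. The Sms window shown held 0 GC boxes, 1 E-box and 1 CCAAT, and the second Sms window, which lies inside the annotated gene, held 4 GC boxes. Of all 32851 windows, 35.7% held a GC box, 7.15% an E-box, 37.4% a CCAAT and 13.6% a TATAAA. A match describes these letters and says nothing of binding.

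Oaz1 and Azin1, the antizyme and its inhibitor, changed little beside Odc1, whose enzyme the antizyme binds. Oaz1 (ENSMUSG00000035242, chromosome 10 from 80826656 to 80829290, plus strand) was the most abundant of the 10 genes in both states. It measured 515, 605 and 566 TPM in osteoclasts, against 521, 529 and 520.5 TPM in BMMs. The groups overlapped, since replicate 1 of the osteoclasts lay below all BMM libraries. The mean was 562 ± 44.9 TPM in osteoclasts and 524 ± 4.95 TPM in BMMs (SD, n = 3 each), and the log2 fold change was 0.10 ± 0.06 (SE, limma adjusted p = 0.20). Its sign depended on the scaling, at -0.11 with median-ratio scaling (adjusted p = 0.26 from limma), and without osteoclast replicate 1 the value was 0.16 and passed the test (adjusted p = 0.023). A processed copy, Oaz1-ps, shares 11.2% of the windows of Oaz1 and measured 9.92 ± 1.66 TPM in osteoclasts and 7.82 ± 0.655 TPM in BMMs (SD, n = 3 each).

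Full-length antizyme is made only when ribosomes shift frame within the Oaz1 message, a step that polyamines stimulate, and so its RNA level leaves that step unmeasured. The site is shown because it is where this control acts. The 30 bases around it lie at chr10:80828280-80828309 of GRCm38 on the plus strand, with the stop codon of the first frame in capitals.
Oaz1 frameshift site: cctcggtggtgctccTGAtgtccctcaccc
The GENCODE annotation writes the shift into the coding sequence of 3 of the 6 coding Oaz1 transcripts by leaving out base 80828295, the T of that stop codon.

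Azin1 (ENSMUSG00000037458, chromosome 15 from 38487427 to 38519266, minus strand) measured 78.0, 74.9 and 61.7 TPM in osteoclasts, against 57.1, 58.6 and 58.0 TPM in BMMs. No osteoclast library fell into the BMM range, although replicate 3 came close. Its mean was 71.5 ± 8.66 TPM in osteoclasts and 57.9 ± 0.743 TPM in BMMs (SD, n = 3 each), and the log2 fold change was 0.29 ± 0.09 (SE, limma adjusted p = 0.017). The call was lost with median-ratio scaling (log2 fold change 0.08, adjusted p = 0.39 from limma) and with quantile normalization (adjusted p = 0.35). Rescaling without the mitochondrially encoded and the 20 most abundant genes lost it too (adjusted p = 0.25). It was also lost without osteoclast replicate 1 (adjusted p = 0.062) and without BMM replicate 1 (adjusted p = 0.055). Azin1 shares 3.08% of its windows with Gm49077, an antisense gene.

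Sat1 (ENSMUSG00000025283, X chromosome from 155213132 to 155216449, minus strand), the rate-limiting enzyme of polyamine breakdown, was abundant in both states. It measured 270.0, 298 and 228 TPM in osteoclasts, against 223, 212 and 232 TPM in BMMs. Replicate 3 of the osteoclasts lay inside the BMM range. The mean was 265.5 ± 35.4 TPM in osteoclasts and 222 ± 10.2 TPM in BMMs (SD, n = 3 each), and the log2 fold change was 0.25 ± 0.10 (SE, limma adjusted p = 0.047). This call was lost in 11 of 15 alternatives, among them median-ratio scaling (log2 fold change 0.04, adjusted p = 0.76 from limma) and each left-out library other than osteoclast replicate 3.

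The order of the genes by TPM, which is per length, shifted with differentiation. In osteoclasts the order by mean was Oaz1, Sat1, Odc1, Srm, Azin1, Amd1, Sms, Arg1, Arg2 and Nos2, and the ranges of the libraries overlapped between Sat1 and Odc1, between Azin1 and Amd1, and between Amd1 and Sms. In BMMs the order was Oaz1, Sat1, Odc1, Azin1, Srm, Amd1, Sms, Arg1, Arg2 and Nos2, with overlap between Srm and Amd1. Odc1 made up 16.1% to 17.8% of the summed TPM of the 10 genes in osteoclasts and 6.2% to 6.4% in BMMs. Srm made up 11.3% to 13.0% in osteoclasts and 2.9% to 3.7% in BMMs, and Oaz1 37.1% to 40.6% in osteoclasts and 53.7% to 55.2% in BMMs. The sum itself was 1387 to 1533 TPM in osteoclasts and 958.8 to 969.1 TPM in BMMs.

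Ratios between genes of the same library do not change when the library is multiplied by a constant factor. Quantile normalization can change them and was not applied to the ratios. There were 5 of them, each tested by exact permutation of the 6 libraries (two-sided), which cannot give a p below 0.1, and adjusted over the 5 ratios. Oaz1 over Odc1, the antizyme message relative to that of its target, was 2.19, 2.46 and 2.28 in osteoclasts, against 8.50, 8.59 and 8.62 in BMMs. The ratio was far lower in every osteoclast library, by a log2 difference of -1.89 (exact p = 0.1, the smallest possible, adjusted 0.125). Azin1 over Odc1 was 0.331, 0.304 and 0.249 in osteoclasts, against 0.931, 0.950 and 0.960 in BMMs, so the message of the inhibitor nearly equalled that of Odc1 only in BMMs. Its log2 difference was -1.69 (exact p = 0.1, adjusted 0.125).

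Sat1 over Srm compares the messages of a breakdown enzyme and a synthesis enzyme, and not their activity. This ratio was 1.70, 1.72 and 1.25 in osteoclasts, against 6.95, 6.03 and 8.30 in BMMs (log2 difference -2.19, exact p = 0.1, adjusted 0.125). The osteoclast libraries again lay below all BMM libraries. Sms over Srm was 0.371, 0.350 and 0.301 in osteoclasts, against 0.670, 0.579 and 0.826 in BMMs (log2 difference -1.01, exact p = 0.1, adjusted 0.125), since Srm rose more than Sms. Arg1 over Arg2 was 8.42, 13.3 and 8.15 in osteoclasts, against 10.2, 11.2 and 9.43 in BMMs. These overlapped, with a log2 difference of -0.08 (exact p = 0.8, adjusted 0.8) whose sign turned when osteoclast replicate 1 or 3 was left out and which became -1.07 with 1 TPM added to both genes. At Arg2 levels below 1 TPM in osteoclasts, a difference in this ratio was hardly detectable.

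**Figure D3:**
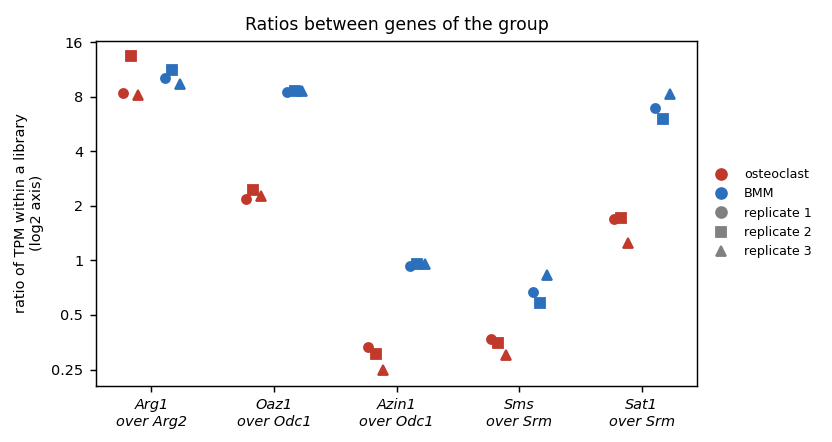
Ratios of TPM within a library on a log2 axis for 5 pairs of genes, osteoclasts in red left of BMMs in blue, with a symbol for each replicate number. Osteoclasts lie below BMMs in Oaz1 over Odc1 (means 2.31 and 8.57), Azin1 over Odc1, Sms over Srm and Sat1 over Srm, and the groups overlap in Arg1 over Arg2.

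Of 7 tested genes of arginine transport and synthesis, 3 were higher, 1 was lower and 3 did not pass, beside 45.3% higher and 23.5% lower over all genes tested. Their median log2 fold change was 0.14. Slc7a1, the main cationic amino acid importer, measured 33.3, 24.3 and 33.5 TPM in osteoclasts, against 6.57, 6.61 and 6.31 TPM in BMMs, a log2 fold change of 2.05 (adjusted p = 2.1e-06 from limma). Ass1, which makes argininosuccinate from citrulline, measured 22.6, 23.2 and 27.2 TPM in osteoclasts, against 5.32, 4.30 and 4.08 TPM in BMMs, a log2 fold change of 2.19 (adjusted p = 7.7e-07 from limma). In both genes all osteoclast libraries were above all BMM libraries. Asl, which releases arginine in the next step, averaged 29.8 TPM in osteoclasts and 28.7 TPM in BMMs and did not pass.

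The exchangers that pair with the heavy chain Slc3a2 moved in opposite directions. Slc7a6 averaged 16.4 TPM in osteoclasts and 7.12 TPM in BMMs (log2 fold change 1.10, adjusted p = 5.1e-06 from limma). Slc7a7 averaged 18.8 TPM in osteoclasts and 42.5 TPM in BMMs (log2 fold change -1.14, adjusted p = 3.5e-06 from limma). Slc3a2 itself averaged 242 TPM in osteoclasts and 236 TPM in BMMs, a log2 fold change of 0.03 that did not pass and that became -0.18 and passed with median-ratio scaling. Of the 3 genes of the list that were not tested, 1 was at 0 in all libraries.

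Genes of ornithine, proline and glutamate conversion were higher throughout, 7 of 7 tested, beside 45.3% of all genes tested. Their median log2 fold change was 0.98. Aldh18a1, which commits glutamate to proline and ornithine synthesis, averaged 55.0 ± 5.53 TPM in osteoclasts and 11.4 ± 0.757 TPM in BMMs (SD, n = 3 each), 4.82 times as much (limma adjusted p = 2.5e-07). Pycr1, a mitochondrial enzyme of the last step to proline, averaged 3.10 TPM in osteoclasts and 0.381 TPM in BMMs (log2 fold change 1.57). Prodh, which degrades proline, rose too, to 10.9 TPM in osteoclasts against 4.78 TPM in BMMs (log2 fold change 1.04). The change of Pycrl (0.53), a relative of Pycr1, was smaller. Oat, which interconverts ornithine and glutamate semialdehyde, had 147 TPM in osteoclasts and 129 TPM in BMMs, a log2 fold change of 0.19 that became -0.02 with median-ratio scaling. With that scaling 5 of the 7 were called as higher, without Oat, beside 4149 of all 12325 genes tested.

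Among other polyamine enzymes and transporters, 3 of 8 tested were higher, 2 were lower and 3 did not pass (median 0.24). These shares lay near those of all genes tested, 45.3% higher and 23.5% lower. Azin2, the second antizyme inhibitor, averaged 5.59 TPM in osteoclasts and 2.63 TPM in BMMs (log2 fold change 0.86, adjusted p = 5.9e-05 from limma), and Sat2, a relative of Sat1, averaged 2.69 TPM in osteoclasts and 1.25 TPM in BMMs (0.73, adjusted p = 0.0033). Enzymes that oxidize polyamines moved apart. Smox, spermine oxidase, averaged 50.9 TPM in osteoclasts and 38.5 TPM in BMMs (log2 fold change 0.39, adjusted p = 0.0039 from limma, lost with median-ratio scaling, adjusted p = 0.10). Paox, which oxidizes the acetylated polyamines that Sat1 makes, averaged 10.9 TPM in osteoclasts and 18.7 TPM in BMMs (log2 fold change -0.72, adjusted p = 3.6e-05 from limma). Atp13a2, the lysosomal polyamine exporter, averaged 181 TPM in osteoclasts and 257 TPM in BMMs (log2 fold change -0.51, adjusted p = 0.00077 from limma), and its relative Atp13a3 had a value of 0.11 and did not pass.

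Genes that supply S-adenosylmethionine and recycle methylthioadenosine, the by-product of Srm and Sms, were higher in 5 of 7 tested, and 2 did not pass (median 0.54). Over all genes tested, 45.3% were higher. Mtap, which cleaves methylthioadenosine, averaged 48.4 TPM in osteoclasts and 20.1 TPM in BMMs (log2 fold change 1.22, adjusted p = 5e-06 from limma). Mri1, the next enzyme, averaged 31.5 TPM in osteoclasts and 10.9 TPM in BMMs (log2 fold change 1.44, adjusted p = 1.7e-06 from limma). Mat2a, which makes S-adenosylmethionine, averaged 116 TPM in osteoclasts and 64.8 TPM in BMMs (log2 fold change 0.82, adjusted p = 1.7e-05 from limma). Adi1, a later salvage enzyme, was called at 0.26 (adjusted p = 0.035 from limma) and lost its call in 9 of 15 alternatives. Mat2b (0.12) and Apip (0.11) did not pass.

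Spermidine is the substrate from which hypusine is formed on the translation factor eIF5A. Of the 4 genes of this list 3 were higher and 1 was lower (median 0.77), beside 45.3% and 23.5% of all genes tested. Eif5a measured 1019, 1128 and 1023 TPM in osteoclasts, against 523.7, 534.6 and 519.2 TPM in BMMs, and the log2 fold change was 1.00 ± 0.05 (SE, limma adjusted p = 1.1e-06). The osteoclast mean was 2.01 times the BMM mean. The hypusine enzymes moved by similar amounts, Dhps to 44.7 TPM in osteoclasts against 26.0 TPM in BMMs (log2 fold change 0.76) and Dohh to 66.3 TPM in osteoclasts against 38.0 TPM in BMMs (0.79). Eif5a2, the minor paralog, averaged 3.52 TPM in osteoclasts and 5.29 TPM in BMMs (log2 fold change -0.49, adjusted p = 0.0093 from limma).

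Genes around nitric oxide other than Nos2 gave 3 higher, 2 lower and 1 not passing of 6 tested (median 0.38). All genes tested gave 45.3% higher and 23.5% lower. Ddah1, which breaks down methylated arginines that inhibit nitric oxide synthases, and its paralog Ddah2 moved in opposite directions. Ddah1 averaged 2.16 ± 0.437 TPM in osteoclasts and 0.134 ± 0.0991 TPM in BMMs (SD, n = 3 each, log2 fold change 1.47, adjusted p = 3.7e-05 from limma). Ddah2 averaged 8.47 ± 1.01 TPM in osteoclasts and 31.8 ± 0.0135 TPM in BMMs (SD, n = 3 each, log2 fold change -1.80, adjusted p = 6.1e-07 from limma). In the synthesis of tetrahydrobiopterin, the cofactor of nitric oxide synthases, Gch1 of the first step had a value of 0.15 and did not pass, Pts was lower (-0.51) and Spr was higher (1.07), as was the recycling enzyme Qdpr (0.62). Of the other synthases and regulators, 3 genes stayed under 1 TPM in all libraries.

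Genes often measured together with Arg1 in macrophages were lower in 6 of 6 tested (median -2.57), beside 23.5% of all genes tested. Chil3, a secreted chitinase-like protein, measured 0.794, 0.808 and 0.806 TPM in osteoclasts, against 288, 273 and 286 TPM in BMMs (log2 fold change -7.30, adjusted p = 1.1e-10 from limma). Mrc1, the mannose receptor, averaged 65.6 TPM in osteoclasts and 648 TPM in BMMs (log2 fold change -3.29), and the scavenger receptor Cd163 averaged 2.59 TPM in osteoclasts and 38.2 TPM in BMMs (-3.46). The lectin Mgl2 had a log2 fold change of -1.85. Il4ra, the interleukin-4 receptor chain, averaged 34.8 TPM in osteoclasts and 104.7 TPM in BMMs (-1.56), and Stat6, the factor it activates, fell by 0.34 on the log2 scale. The neutrophil markers were lower in osteoclasts beside these genes, and their part was not tested.

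Genes often measured with Nos2 were mixed, with 2 of 6 tested higher and 4 lower (median -0.76). The shares over all genes tested were 45.3% higher and 23.5% lower. The chemokine Cxcl10 averaged 14.1 TPM in osteoclasts and 5.38 TPM in BMMs (log2 fold change 1.25, adjusted p = 0.00012 from limma). Tnf was called at 0.26, lost with median-ratio scaling (0.06, adjusted p = 0.56 from limma) and without any 1 of the BMM libraries. Irf1, a factor of the interferon response, was lower (-0.97), as were Acod1 (-0.88) and Cxcl9 (-0.72).

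The Myc network was included because Odc1 is a known target of Myc. Of 10 tested genes 3 were higher, 5 were lower (3 without any 1 of the BMM libraries) and 2 did not pass (median -0.15). Among all genes tested, 45.3% were higher and 23.5% were lower. Myc measured 129.3, 126.0 and 134.4 TPM in osteoclasts, against 20.3, 21.0 and 18.9 TPM in BMMs (log2 fold change 2.64, standard error 0.06, adjusted p = 1.8e-08 from limma). The paralog Mycl measured 26.0, 25.6 and 27.7 TPM in osteoclasts, against 0.209, 0.195 and 0.185 TPM in BMMs, a log2 fold change of 4.52 (adjusted p = 5.2e-09 from limma). Both rose in every osteoclast library. Mxd4, Mxd3 and Mxd1, which bind the shared partner Max in place of Myc and repress, were lower, with log2 fold changes of -1.64, -1.28 and -0.55, and Mlx, a related partner, was higher (0.43). In the rest of the list, Mnt (-0.25) and Max (-0.19) were lower by less, and Mxi1 (0.14) and Mga (-0.11) did not pass. Whether Myc acts on Odc1 or Srm in these cells was not tested.

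**Figure D4:**
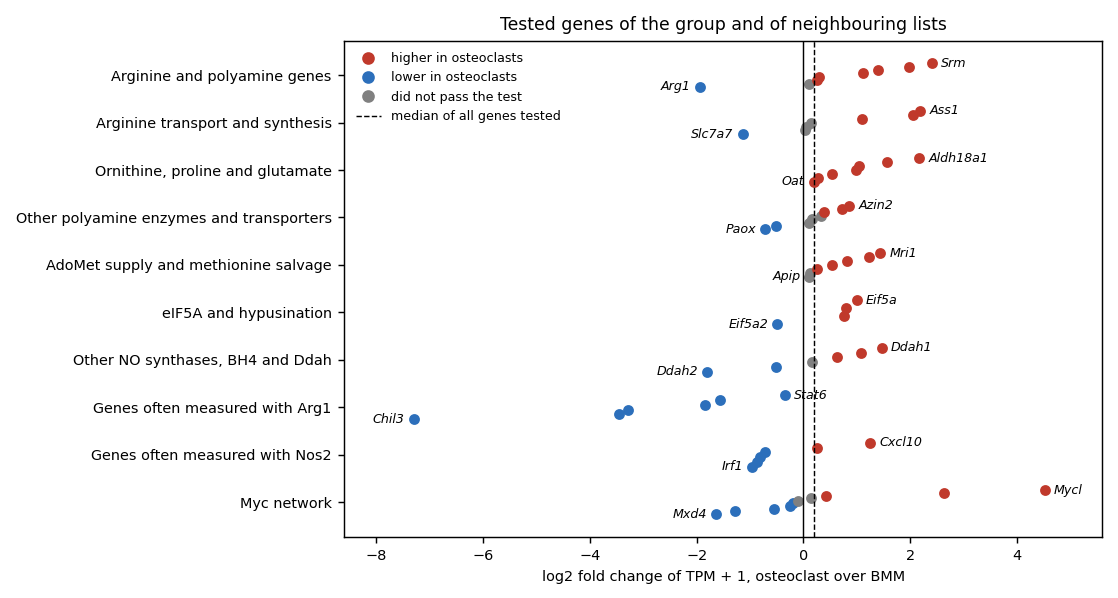
Log2 fold change of TPM + 1, osteoclasts over BMMs, of the tested genes of the group and of 9 neighbouring lists; red points passed the test as higher, blue as lower and grey did not pass, the lowest and highest gene of a list is named, and the dashed line is the median of all genes tested. Points of the ornithine list are red throughout and those measured with Arg1 are blue throughout, while the other lists are mixed.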

How the data were processed

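RNA-Seq libraries of osteoclasts (3) and BMMs (3) were analysed. The submitters' processing notes name bcl2fastq 2.17, Trimmomatic 0.36 for trimming and STAR 2.5.2b for alignment, with build mm10. The authors deposited TPM values. The sources used here do not give the counter, whether it used strand, or what it did with reads of several matches. TPM keeps no depth, so counting intervals and count tests were not possible.

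No further scaling was applied to the deposited TPM values. Genes averaging 1 TPM or more over all 6 libraries entered limma 3.58.1 (R 4.3.3) as log2(TPM + 1), with a two-sided moderated test (empirical Bayes with intensity trend, Benjamini-Hochberg over 12325 genes, threshold 0.05). Ratios were compared with exact permutation tests. Coordinates came from GENCODE vM21 on GRCm38, which is mm10. Named were the 10 genes, genes that share windows of 150 bases with them, the 3 largest and 3 smallest log2 fold changes of each list and the most abundant gene of each marker list, which for mast cells and basophils was Prss34, listed at 0 in osteoclasts and at 2.29 TPM in BMMs. The genes and lists were chosen with earlier results of these data known, and lists are described by counts without a set test. Elane, Ly6g, Cd68, Cx3cr1, Mnt, Max, Mxi1 and Mga lie outside this rule and were named after their values were seen. A few genes within it are not reported here. The results were recomputed with each library left out, with the replicate number as a block, with limma fitted without its trend, with a log2 fold change of 1 or more in either direction required, with the filter removed or set to 5 TPM, with a pseudocount of 0.1 or 0.5 TPM, and with 3 scalings: median-ratio, quantile, and rescaling once the mitochondrially encoded and the 20 most abundant genes were taken out. Python 3.11.15, pandas 2.3.3, NumPy 2.4.6, SciPy 1.17.1 and matplotlib 3.10.9 were used.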

Additional observations from a re-analysis of the deposited data

How the results depend on the processing

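The alternatives were compared for 65 named genes, in 964 pairs of a gene and an alternative. Of the pairs, 898 kept their direction and their side of the threshold, and 39 lost the call. A further 3 gained it (Oaz1, Gch1 and Mat2b, each without 1 osteoclast library) and 24 reversed. Of these, 23 came from median-ratio scaling, quantile normalization and rescaling, which move the centre of all genes by construction. The log2 fold changes under them, in that order, were -0.18, -0.17 and -0.14 for Slc3a2, which passed the test there, and, without passing, -0.11, -0.11 and -0.07 for Oaz1, -0.16, -0.16 and -0.12 for Asl, -0.10, -0.10 and -0.06 for Apip, -0.10, -0.08 and -0.06 for Atp13a3, -0.08, -0.07 and -0.05 for Mat2b and -0.05, -0.05 and -0.01 for Gch1. Oat, called as higher in the values as deposited, was at -0.02 and -0.01 with the first and second of them. The remaining reversal was Atp13a3 without osteoclast replicate 1, and its values with single libraries left out ran from -0.03 to 0.21. Calls split into 65.8% higher as deposited, 50.1% with median-ratio scaling, 49% with quantile normalization and 53.6% with rescaling. Lyz2, the most abundant macrophage marker, lost its call with quantile normalization (-0.09). The arginine transport and synthesis list had 2 lower genes under those 3 settings, and the list measured with Nos2 had 1 higher. Requiring a log2 fold change of 1 or more in either direction, 1673 genes were higher and 941 lower. The lists then held 3 higher genes for ornithine, 0 higher and 0 lower for other polyamine genes, 2 higher for S-adenosylmethionine, 1 higher and 0 lower for eIF5A, 1 lower for nitric oxide, 1 higher and 0 lower beside Nos2, and 2 lower for the Myc network. With a filter at 5 TPM, other polyamine genes had 1 higher, eIF5A 0 lower and the Nos2 list 2 lower, since fewer genes were tested. Without a filter 2 of the 10 genes were lower, Arg1 and Arg2. Leaving out single libraries gave 4 to 6 of the 8 tested genes of the group higher, beside 4998 to 5818 of all 12325. It also gave 1 to 2 higher in the Nos2 list and 3 to 5 lower in the Myc network (3 without each BMM library in turn). The log2 difference for Arg1 over Arg2 then ran from -0.31 to 0.05. With all libraries kept and 1 TPM added to both genes, that difference became -1.07. For other changes the cause was not tested. Same-numbered libraries showed no shared deviation: their deviations correlated at -0.049, -0.003 and -0.068, and those of libraries with different numbers between -0.065 and 0.104. These values cannot show whether same-numbered libraries came from the same animals or cultures. With the number as a replicate block 5 of the 8 tested genes of the group were higher, without Sat1 (adjusted p = 0.062 from limma), beside 5502 of all 12325. TPM keeps no depth, so the precision of Nos2 and Arg2 is limited to the spread of 3 libraries.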
